A study of Mus musculus with 8 samples.

Results

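Broad open regions were defined as stretches of 2000 to 8000 bp on the autosomes of NIH3T3 cells in which each of 4 ATAC-seq libraries had at least 1 called peak. Peaks of the 4 lists that shared at least 1 bp were merged, and a region's merged width ran from the first peak start to the last peak end in any library. This gave 539 regions out of 27302 autosomal regions with a peak in all 4 libraries (1.97%), and out of 45915 merged regions in all. No autosomal region of this width lacked a peak in a library. A further 4 shared regions of this width lay on X or Y and 3 autosomal regions were wider, and none of these was counted.

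NIH3T3 is an immortalised mouse embryonic fibroblast line. The cells were cultured for 24 h on G128 or on G2, with 2 libraries per group, in DMEM with newborn calf serum in both, and no other treatment or genotype was named. The labels do not explain the names G128 and G2, and the series concerns hydrogels of polyvinyl alcohol and gelatin, adhesion and chromatin. Separate cultures are not stated for the replicates, so p-values between groups measure only the spread between these libraries, which may be technical. Each library was a bulk sample, so a region open in more cells and a region more open per cell cannot be told apart.

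In ATAC-seq the Tn5 transposase inserts adapters into DNA that nucleosomes leave exposed, and reads pile up there. A single promoter or enhancer core usually gives a narrow peak over one gap between nucleosomes. Broad stretches are known from CpG island promoters, from promoters facing each other and from groups of enhancers, where several such gaps lie side by side and may be joined into one peak or called as several. A peak caller draws the edges of a peak where the signal falls below its threshold, so the called width depends on the height of the signal and on depth as well as on the chromatin.

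Depth was judged by the background mean, the number of overlapping intervals per bp against which the peak caller tested each position. It was 1.05 and 1.41 in G128 replicates 1 and 2, and 1.10 and 1.37 in G2 replicates 1 and 2, so replicate 1 was the shallower library in both groups. The lists held 32540 to 42358 peaks. The summit of a region in a library is the highest pileup of intervals among that library's peaks in it, and its height is given as a multiple of the background mean. The weakest summits listed stood at 18.2 to 19.0 times the background.

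Most broad regions lay close to the lower limit of width. Their median merged width was 2305 bp, with quartiles of 2107.5 and 2676 bp, and 338 of them (62.7%) were under 2500 bp. Widths of 3000 bp or more were found in 77 regions. The 539 regions together spanned 1.36 Mb, or 6.81% of the merged bases of the autosomal shared regions. The regions nearest to the limit on its inner side were chr4:129851754-129853753, 2000 bp wide and 102 to 148 times the background at the summit, and chr6:85400768-85402768, 2001 bp wide and 469 to 618 times. Just outside it were chr11:113611696-113613694 and chr16:50528562-50530560, both 1999 bp wide, the former at 168 to 243 and the latter at 65.9 to 87.3 times. At the upper limit, the widest member had 7025 bp and the next autosomal shared region, chr11:3039685-3048745, had 9061 bp. Positions are on mm9 and were not annotated with genes here. Width and presence in 4 libraries chose the members, so these values are a description.

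The broad regions were more frequent on some chromosomes than on others. They made up 3.70 of 100 shared regions on chromosome 19 (39 of 1053), 3.04 on chromosome 17 (44 of 1447), 2.83 on chromosome 15 and 2.70 on chromosome 11, where their number was highest with 66. The lowest shares were 0.618 of 100 on chromosome 14 (5 of 809) and 0.643 on chromosome 13 (6 of 933). No test was made of these shares, since regions are not replicates.

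Summits in broad regions were high in all 4 libraries. The rule did not use summits, but the called width depends on their height, so this is a description. On G128 their median was 145 times the background for replicate 1 and 171 times for replicate 2, and on G2 it was 200 and 207.5 times. The other autosomal shared regions had medians of 49.3, 56.7, 66.4 and 67.2 times in the same order. Among these, the regions of 1500 to under 2000 bp were close to the broad regions, at 140, 168, 196 and 202 times. Of the 539 regions, 221 (41.0%) were among the 2731 strongest autosomal shared regions by mean summit, and 13 (2.41%) were below the median. The mean summit ranged from 42.3 to 3018 times the background, with quartiles of 123 and 290 times.

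Within the broad regions, width said little about height. Spearman's rho between merged width and mean summit was 0.0753 over the 539 regions, and Pearson's r between width and log2 summit was 0.131. Over all 27302 autosomal shared regions, which span a wider range of widths, Spearman's rho was 0.778. A limited range of widths can itself lower rho, so these values of rho are not comparable. All regions come from the same 4 libraries and width depends on height through the caller's threshold, so these are descriptions. Median summits in regions of 1500 to under 2000 bp were 140, 168, 196 and 202 times the background in the order of libraries above. In regions of 2000 to under 2500 bp they were 135, 162, 195 and 199 times, and from 3000 bp on they were 157, 190, 211 and 222 times.

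Median summits of the broad regions stood higher over the background on G2 than on G128, without overlap of the groups. The medians averaged 158 ± 18.1 times on G128 (SD, n = 2) and 204 ± 5.22 times on G2 (SD, n = 2), a ratio of 1.29. Between the replicates 1 the ratio was 1.38 and between the replicates 2 it was 1.22. As log2 values they were 7.30 ± 0.17 on G128 (SD, n = 2) and 7.67 ± 0.04 on G2 (SD, n = 2), a difference of 0.37. The two-sided exact permutation test over the 6 assignments gave p = 0.333, the smallest p that 2 against 2 libraries allow, so it could not pass a threshold of 0.05. Without G128 replicate 1 the difference was 0.26 and without G128 replicate 2 it was 0.49. Before division by the background mean, the pileups had medians of 153, 241, 220 and 284 intervals, and the groups overlapped, so their separation rests on that division.

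Of the 539 broad regions, 428 (79.4%) had a higher summit over the background in both G2 libraries than in both G128 libraries, where the share over all 27768 shared regions was 67.6%. The reverse held for 4 broad regions (0.742%), against 2.79% of all shared regions. Shared regions of 1000 to under 2000 bp gave 82.5% and 0.772%, so the share among broad regions lay near that of the next narrower regions.

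The difference in summits was close to that of other regions. The median log2 summit of the broad regions exceeded that of the other autosomal shared regions by 1.56 and 1.59 on G128 and by 1.59 and 1.63 on G2. The replicates 2 had the larger margin in both groups, and G128 replicate 2 was level with G2 replicate 1. The margin differed between the groups by 0.03, with an SD of 0.02 in each group (n = 2, two-sided exact permutation p = 0.333, the smallest possible). Set against regions of 1000 to under 2000 bp, the margin was 0.26 for both libraries on G128, and 0.23 and 0.21 on G2, a difference of -0.04. The sign of the margin's change thus depended on the regions used for comparison. For broad regions of 3000 bp or more it was -0.01 against autosomal shared regions under 2000 bp.

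**Figure D1:**
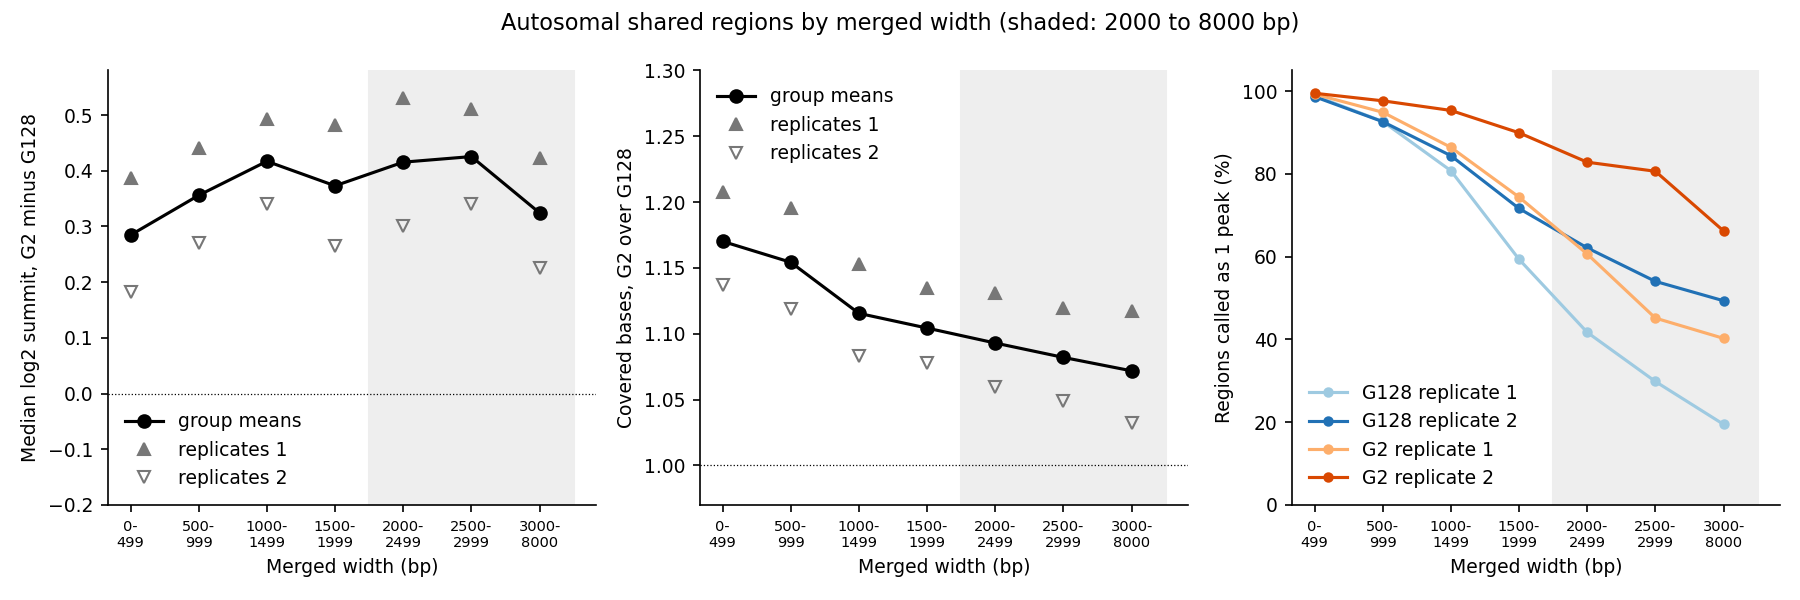
Autosomal shared regions grouped by merged width in bp on the x axis, with the broad regions shaded. The panels show the difference of the median log2 summit (G2 minus G128), the ratio of covered bases (G2 over G128), each for the group means and within replicate numbers, and the percentage of regions called as 1 peak in each library. The ratio of covered bases went from 1.17 in regions under 500 bp to 1.07 in those of 3000 bp or more, while the summit difference stayed between 0.28 and 0.43.

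Within each group, peaks covered more of the broad regions in the deeper library, and the groups overlapped. What part depth has in this was not tested. Covered bases summed to 1.10 Mb in G128 replicate 1, 1.25 Mb in G128 replicate 2, 1.24 Mb in G2 replicate 1 and 1.32 Mb in G2 replicate 2. This was 80.6%, 92.1%, 90.7% and 96.8% of the merged length. The mean was 1.18 ± 0.111 Mb on G128 (SD, n = 2) and 1.28 ± 0.0590 Mb on G2 (SD, n = 2), so the ratio of 1.09 was a difference smaller than the SD on G128. The two-sided exact permutation p was 0.667. Within replicate numbers the ratio was 1.12 for the replicates 1 and 1.05 for the replicates 2, and G2 was thus higher in both. In the other autosomal shared regions, all under 2000 bp, the G2 libraries covered more than both G128 libraries, with a ratio of 1.14. In those of 1000 to under 2000 bp the groups overlapped, as in the broad regions. Peaks there covered 6.46 Mb in G128 replicate 2 and 6.45 Mb in G2 replicate 1. The ratio of the group means was 1.11 (two-sided exact permutation p = 0.667).

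Since the merged width of all libraries chose the broad regions, covered bases are a description. When regions of 2000 to 8000 bp were chosen from the replicates 1 alone, 292 regions resulted, and in the replicates 2, which had not chosen them, peaks in them covered 0.738 Mb on G128 and 0.762 Mb on G2, a ratio of 1.03. When 492 regions were chosen from the replicates 2, the replicates 1 covered 1.05 Mb on G128 and 1.16 Mb on G2, a ratio of 1.11. Each of these regions also had a peak in both libraries that had not chosen it. With 1 library per group these ratios have no replicate check.

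In 184 broad regions (34.1%) both G2 libraries covered more bases than both G128 libraries, where the share over all shared regions was 43.5%. In 10 broad regions (1.86%) they covered fewer, against 2.84% of all shared regions. Nothing is read from these shares, because width chose the regions.

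The bases that a library left uncovered were divided about equally between gaps inside a region and its outer edges. Gaps between the peaks of a region summed to 0.122 and 0.0523 Mb on G128 and to 0.0575 and 0.0180 Mb on G2, each for replicates 1 and 2. Uncovered edges summed to 0.142, 0.0550, 0.0689 and 0.0249 Mb in the same order. Both were lowest in G2 replicate 2 and highest in G128 replicate 1, and the groups overlapped. Within replicate numbers, gaps on G2 were 0.472 times those on G128 for the replicates 1 and 0.344 times for the replicates 2. G2 replicate 2 alone set 492 of the 1078 outer edges (45.6%), while G128 replicate 2 set 282, G2 replicate 1 set 156 and G128 replicate 1 set 52. The remaining edges were shared by libraries.

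Whether a broad region was called as a single peak or as several differed widely between libraries. As 1 peak were called 193 of the 539 regions in G128 replicate 1 (35.8%), 315 in G128 replicate 2 (58.4%), 292 in G2 replicate 1 (54.2%) and 431 in G2 replicate 2 (80.0%). G2 replicate 1 was below G128 replicate 2, so the groups overlapped (47.1 ± 16.0% on G128 against 67.1 ± 18.2% on G2, SD, n = 2 per group, two-sided exact permutation p = 0.667). Within replicate numbers, G2 was higher by 18.4 percentage points in the replicates 1 and by 21.5 in the replicates 2. The median widest peak in a region was 1563, 2034, 1986 and 2182 bp in the order of libraries above.

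**Figure D2:**
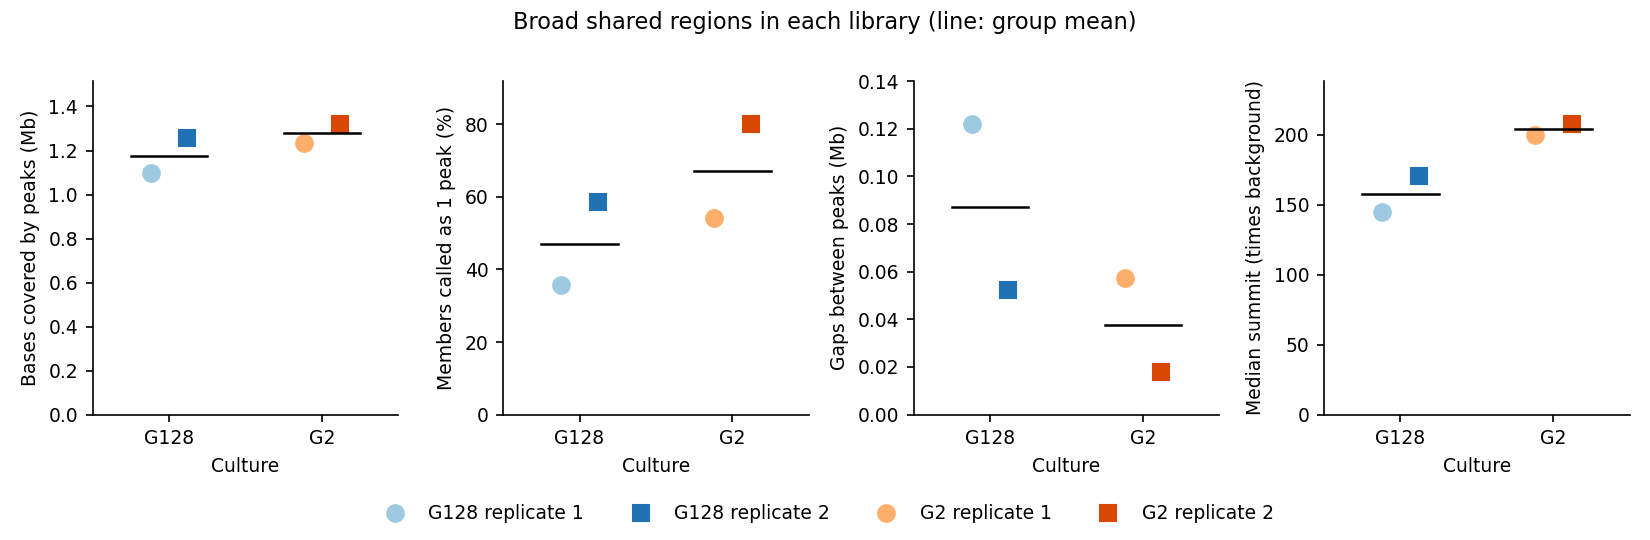
Values of the 539 broad regions in each library, grouped by culture on the x axis, with a line at the group mean. The panels show bases covered by peaks in Mb, the percentage of regions called as 1 peak, the summed gaps between peaks in Mb and the median summit as a multiple of the background. G2 replicate 1 lies on the G128 side of G128 replicate 2 in the first 3 panels (for example 292 against 315 regions called as 1 peak), and the groups are apart only for the summit.

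In 139 broad regions (25.8%) all 4 libraries had a single peak, against 85.0% of the other autosomal shared regions, and in 42 (7.79%) all 4 had several, against 0.131%. Regions with 1 peak throughout were 2185 bp wide at the median and had mean summits of 250 times the background at the median. Those with several peaks throughout had medians of 2312.5 bp and 137 times, so the split regions were lower in summit and slightly wider. Both G2 libraries had 1 peak where both G128 libraries had several in 39 regions (7.24%, against 1.61% of all shared regions), and the reverse held in 4 (0.742%, against 0.18%). By replicate number, both replicates 2 had 1 peak where both replicates 1 had several in 55 regions (10.2%, against 1.13%), and the reverse held in 2 (0.371%, against 0.285%). A wider region has more room for several peaks and width chose the regions, so nothing is read from these shares. G128 replicate 1 alone was split in 67 regions, and G2 replicate 2 alone was whole in 92.

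The position of the highest summit was close in all libraries. Between 2 libraries its median distance was 8 to 10 bp. It lay within 100 bp in 81.8% and 84.0% of regions for the pairs within G128 and G2, and in 80.7 to 82.6% for the 4 pairs between groups. All 4 summits lay within 100 bp in 371 regions (68.8%), and they were spread over more than 500 bp in 70 (13.0%). The summit lay over 500 bp apart between the groups, with libraries of a group within 500 bp of each other, in 9 regions, against 3 regions for the replicate numbers and 5 for the crossed pairs. The median distance of the mean summit from the nearer edge of the merged region was 771 bp.

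**Figure D3:**
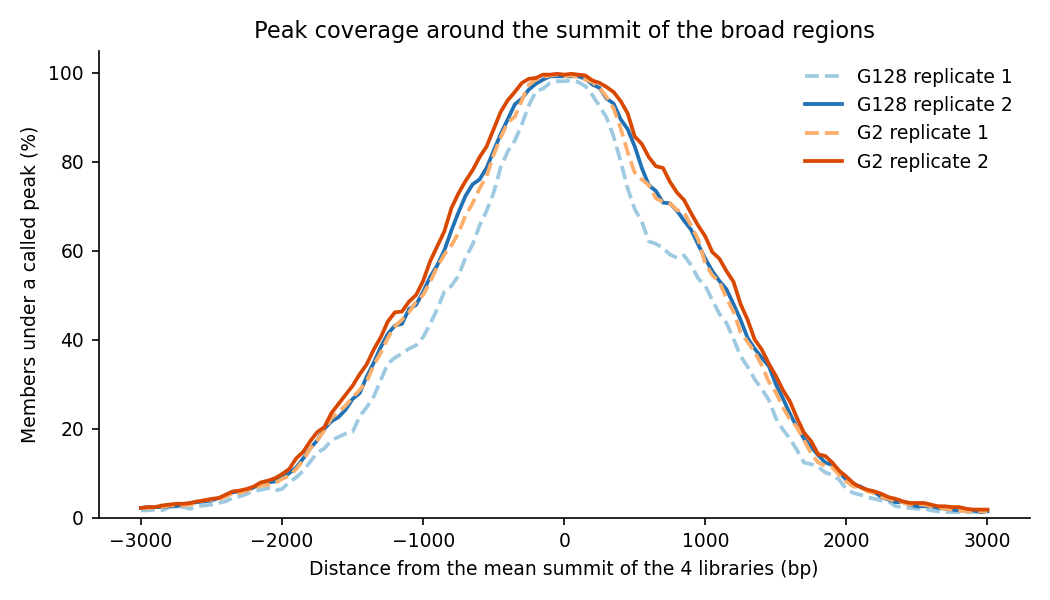
Percentage of the 539 broad regions that lay under a called peak, against the distance in bp from the mean summit of the 4 libraries, one line per library. At the summit the lines stand at 98.1 to 99.6%, and 500 bp to the right they spread to 69.4% in G128 replicate 1, 77.6% in G2 replicate 1, 83.5% in G128 replicate 2 and 85.7% in G2 replicate 2.

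Around the mean summit, coverage fell on both sides in each library. At 1000 bp to the left, 40.6% of the regions were under a peak in G128 replicate 1, 50.8% in G128 replicate 2, 50.1% in G2 replicate 1 and 53.2% in G2 replicate 2. At 1000 bp to the right these shares were 52.1%, 58.3%, 57.1% and 63.3%. G128 replicate 1 was the lowest and G2 replicate 2 the highest at both of these distances, with the other two between them.

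The widest member was chr19:5843849-5850873, 7025 bp long. Its peaks covered 6487, 6681, 6732 and 6779 bp in G128 replicates 1 and 2 and G2 replicates 1 and 2, and its summits were 201, 254, 274 and 286 times the background. It lay 76 bp, the smallest distance between members, from chr19:5838444-5843772 of 5329 bp, whose summits were 75.9, 103, 81.0 and 111 times. These were higher in both replicates 2 than in both replicates 1, and within each replicate number they were slightly higher on G2. That region was called as 4, 1, 3 and 2 peaks in the same order. The member chr7:16894473-16899917, 5445 bp wide, was split in every library, into 5, 2, 3 and 2 peaks, with summits of 70.2 to 110 times the background.

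The remaining 3 of the 6 widest members were whole in every library. The member chr17:39979887-39985827 was covered over 5939 to 5941 bp in all 4 libraries, with summits of 1822, 1982, 2240 and 2303 times the background. Its edges therefore differed by 2 bp at most in covered length, while its summits were higher in both G2 libraries. The member chr15:76034047-76039347 had summits of 239, 296, 378 and 375 times, and chr17:34254917-34259933 had summits of 266, 344, 409 and 403 times. In both of these the G2 libraries were above the G128 libraries and close to each other.

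**Figure D4:**
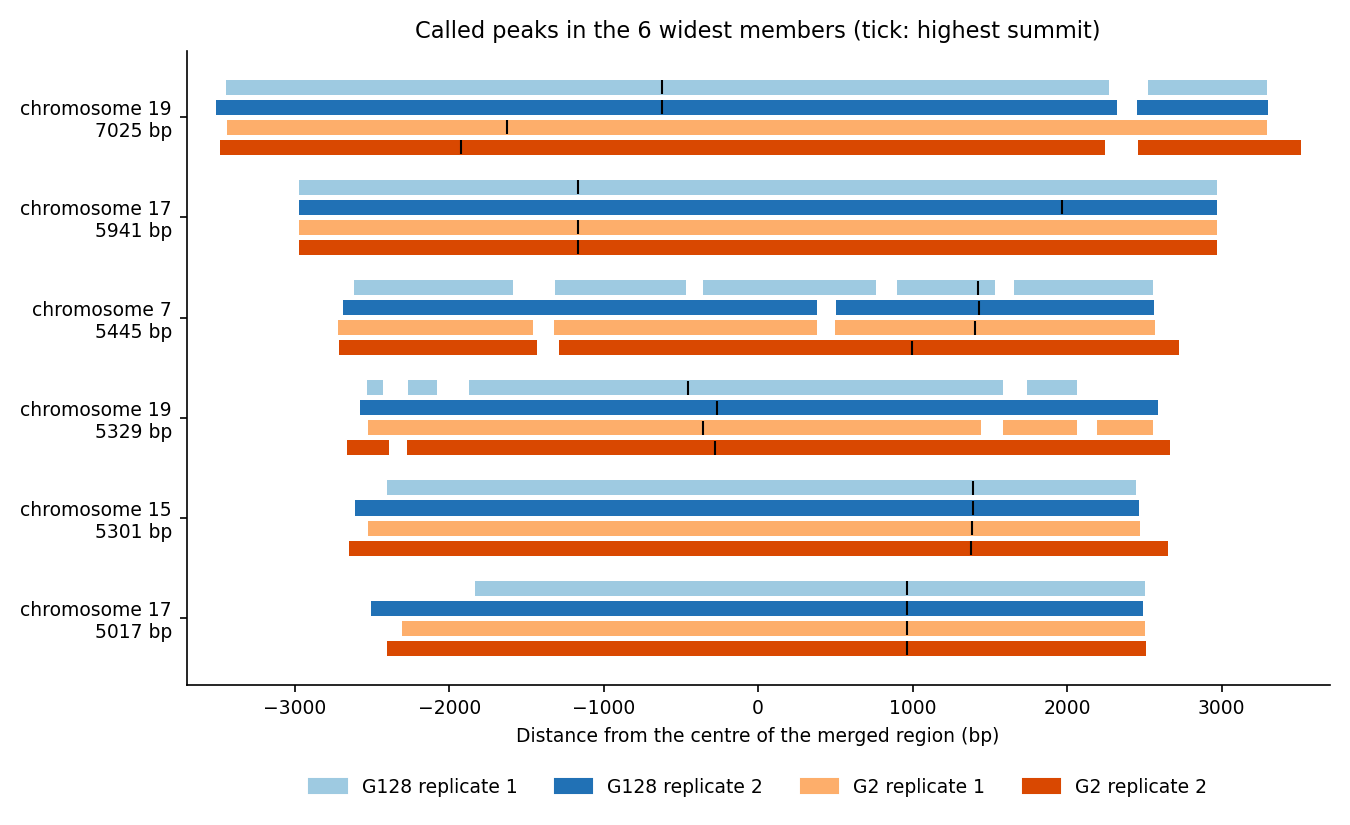
Called peaks of each library in the 6 widest broad regions, drawn as bars at their distance in bp from the centre of the merged region, with a tick at the highest summit. The members on chromosome 15 and 17 are whole in each library, while the member of 5445 bp on chromosome 7 is split into 5, 2, 3 and 2 peaks.

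Among the regions with more covered bases on G2, the leading pair was called as more peaks on G128. At chr2:59449373-59451964 peaks covered 1003 and 1758 bp in 5 and 4 peaks on G128, and 2095 and 2575 bp in 2 and 1 peaks on G2, a ratio of 1.69. Its summits were 113 and 101 times the background on G128 and 130 and 137 times on G2. At chr16:85172331-85174363 the G128 libraries covered 1186 and 1206 bp in 5 and 4 peaks, and the G2 libraries 1856 and 1912 bp in 2 peaks each, a ratio of 1.58. The next were chr12:113825632-113827861 with a ratio of 1.57 and chr15:36537488-36539768 with 1.56, which had 1 or 2 peaks in every library.

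Among the 10 regions covered less on G2, the ratio was lowest at chr1:134187645-134189745, with 1754 and 2100 bp on G128 and 1463 and 1546 bp on G2, a ratio of 0.781. Its summits were low, at 44.6 and 63.8 times the background on G128 and 45.5 and 42.4 times on G2. The members chr11:3056374-3060359 and chr11:3049447-3052198, which lie close to each other, had ratios of 0.887 and 0.905, and chr11:101518995-101521461 had 0.891.

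Single regions were tested for summit height with limma, on log2 summits after subtraction of the median that all 27768 shared regions had in the same library. That step removes the general difference between the libraries, so a value of 0 means a difference like that of the shared regions as a whole. None of the 539 broad regions passed an adjusted p of 0.05 in either direction, and the test called 0% of all shared regions higher and 0% lower. The smallest adjusted p among the broad regions was 0.0913. At an unadjusted p of 0.05, 14 broad regions were higher on G2 (2.60%, against 5.57% of all shared regions) and 21 lower (3.90%, against 8.67%).

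When limma was fitted with a mean-variance trend, which lets tall summits vary less than low ones, 3 broad regions were higher on G2 (0.557%, against 0.601% of all shared regions) and 10 were lower (1.86%, against 0.864%). Without the median subtraction 93 were higher (17.3%, against 21.1%) and 0 lower (against 0.245%). The median difference of all shared regions then was 0.34 on the log2 scale, and that of the broad regions 0.37. With the subtraction and with the replicate number as a block 2 were higher (0.371%, against 0.987%) and 5 lower (0.928%, against 2.36%). The calls therefore depended on the fit and on the scaling. The 13 regions of the fit with a trend are described next, and were singled out after their values had been seen.

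The broad region with the most negative difference was chr17:13743499-13746092. Its summit was 511 and 507 times the background on G128 and 396 and 362 times on G2. It was lower on G2 by a difference of -0.76 ± 0.10 (log2, SE, relative to the median) with an adjusted p of 1.89e-05 from limma with the trend and 0.0913 without. Its covered length was 2579 to 2594 bp in all libraries. At chr13:74665869-74668136 summits were 264 and 237 times on G128 and 195 and 180 times on G2, a difference of -0.75 ± 0.12 (log2, SE, limma with the trend, adjusted p = 0.000217).

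Also lower were chr8:19923664-19927204, with 123 and 106 times on G128 against 93.7 and 86.2 times on G2, and chr11:3049447-3052198, with 81.6 and 82.9 against 69.1 and 69.4 times. With the preceding pair, these were the 4 broad regions whose summits over the background were lower in both G2 libraries before the median was subtracted. In pileups not divided by the background mean, chr11:3049447-3052198 had 86 and 117 intervals on G128 and 76 and 95 on G2, so its groups overlapped. For chr8:19923664-19927204 and chr11:3049447-3052198 the differences relative to the median were -0.68 and -0.58, with adjusted p-values from limma with the trend of 0.00974 and 0.0414.

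The 3 regions called higher were chr5:123587538-123589641, chr2:26169510-26171957 and chr11:120684489-120686532. At the first, summits were 106 and 162 times the background on G128 and 244 and 253 times on G2, a difference of 0.59 ± 0.12 relative to the median (log2, SE, limma with the trend, adjusted p = 0.00685). At the second they were 69.2 and 85.0 times on G128 and 139 and 142 times on G2, a difference of 0.54 (adjusted p = 0.0289, same fit). The third had 223 and 235 times on G128 and 357 and 403 times on G2, a difference of 0.40 (adjusted p = 0.0349, same fit). Without the trend limma gave adjusted p-values of 0.165, 0.141 and 0.253 for them.

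**Figure D5:**
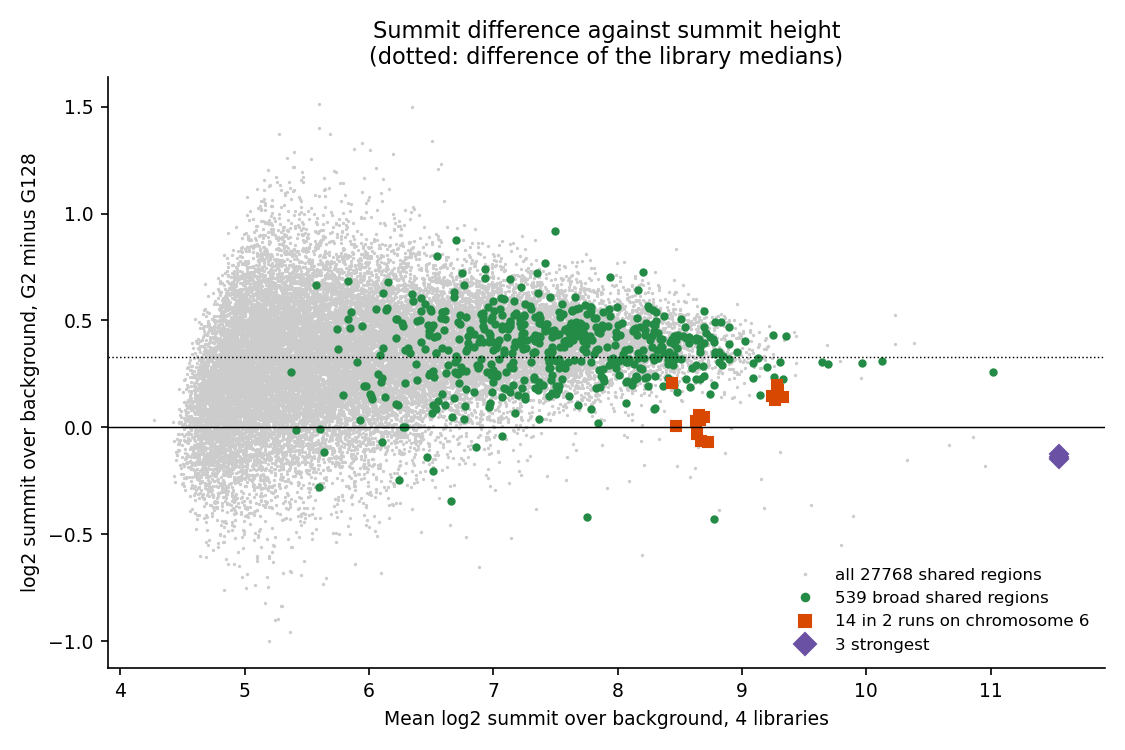
Difference of the log2 summit over the background (G2 minus G128, before the median is subtracted) against its mean over the 4 libraries, for all 27768 shared regions and the 539 broad regions. The dotted line is the difference of the library medians. Of the broad regions, 520 (96.5%) lie above 0, against 90.0% of all shared regions, and 317 (58.8%) lie above the dotted line, against 52.2%. The 14 regions of the runs on chromosome 6 lie below the dotted line, and the 3 strongest lie below 0.

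The 3 strongest broad regions were nearly equal in every library. They were chr4:79648184-79651160, chr2:22442766-22446104 and chr1:24618318-24623076, 2977, 3339 and 4759 bp wide. On G128 their summits were 3422, 3372 and 3385 times the background for replicate 1, and 2932, 2917 and 2923 times for replicate 2. On G2 they were 3014, 3047 and 3009 times, and 2704, 2721 and 2718 times. Within a library the 3 pileups spanned 0.533 to 1.48% of their mean from lowest to highest. The square root of the mean pileup gives a counting error of 1.56 to 1.73% for a single pileup. A range over 3 regions is not comparable with that error. Each G2 value was below the G128 value of the same number, but the groups overlapped, since G2 replicate 1 was above G128 replicate 2.

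Narrower regions reached nearly the same height. Of the 6 strongest autosomal shared regions, the other 3 were 470 to 1196 bp wide and lay on chromosomes 2, 12 and 13. From lowest to highest, the 6 pileups spanned 1.96, 0.948, 2.03 and 2.09% of their mean in the order of libraries above. A range over 6 regions is wider by construction than the counting error of a single pileup, so it was not set against that error. The next region by height, chr17:39979887-39985827, reached 2087 times the background on average, against 3001 to 3018 times for these 6. Their edges were fixed as well, since covered length in each of the 3 broad regions differed by 3 bp at most between libraries. Whether these regions share sequence was not tested. Of the other members among the 6 highest, chr11:3091822-3094870 had summits of 949 and 1062 times the background on G128 and 1255 and 1235 times on G2, and chr17:3081385-3085071 had 807 and 1008 against 1092 and 1134 times. Both were thus higher in both G2 libraries, unlike the 3 strongest. Relative to the median the summits of the 3 strongest broad regions differed by -0.45 to -0.48 on the log2 scale between the groups (adjusted p of 0.00104 to 0.00168 from limma with the trend, and of 0.246 to 0.269 without).

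Broad regions often had other open regions nearby. The nearest autosomal shared region was at a median distance of 3552 bp, against 8046 bp for the other shared regions, a comparison that width itself can move. Of the 539, 124 (23.0%) lay within 50 kb of another broad region, and 14 runs of 3 or more at such distances held 60 of them. The median distance between neighbouring broad regions was 934 kb.

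A run on chromosome 6 was evenly spaced. Between 47600090 and 47636633 it held 9 broad regions, 2011 to 2096 bp wide, whose starts followed each other at 4224 to 4344 bp. Their summits were 352 to 526 and 357 to 628 times the background on G128 and 359 to 610 and 352 to 665 times on G2, with medians of 377, 437, 408 and 406 times. The groups overlapped in these medians. Covered bases had ratios of G2 over G128 between 0.972 and 1.03. All 9 lay below the general difference, with differences of -0.40 to -0.18 relative to the median and of -0.07 to 0.15 before the median was subtracted (log2).

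A second run on the same chromosome, between 47693463 and 47714580, held 5 broad regions of 2046 to 2428 bp with starts 4311 to 5532 bp apart. Their median summits were 545 and 638 times on G128 and 657 and 660 times on G2. All 5 were also below the general difference, with differences of -0.21 to -0.13 relative to the median and of 0.13 to 0.21 before the median was subtracted. Of the 10 broad regions called lower by limma with the trend, 3 came from the first of these runs. Whether the regions of a run share sequence was not tested, and they were singled out by their positions after these had been seen.

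The other large runs were less regular. On chromosome 19, between 5687897 and 5850873, lay 8 broad regions including the widest, 2214 to 7025 bp wide, where median summits were 186 and 221 times the background on G128 and 260 and 270 times on G2. Both G2 medians were above both G128 medians, and 6 of the 8 were below the general difference, by up to -0.23. A run of 6 on chromosome 11, between 3049447 and 3094870, ranged from 75.8 to 1125 times the background in mean summit. Its median ratio of covered bases was 0.913, and its members included 2 of the 4 regions named above for being covered least on G2.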

How the data were processed

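ATAC-seq peak lists of 4 libraries were used, and 4 RNA samples were left out. Genrich 0.5, Bowtie2 2.2.5, deepTools, SAMtools 1.7, featureCounts 1.5.0-p1 and HISAT2 2.1.0 are named, with mm9, per the submitters' processing notes, without roles or settings. Read shifting and duplicate removal are not given in the sources used here. The deposited columns hold a score (1000 times signal over width, capped at 1000), a signal, −log10 p and −log10 q, and the summit offset. Lists were called per library. Coordinates are those of the files (mm9), counted from 1, and positions were not annotated.

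Summit pileups were computed from the steps of the −log10 p-values, as whole numbers against a log-normal background (largest deviation 0.00179). Values per library were compared by two-sided exact permutation tests. Single regions were tested with limma 3.58.1 in R 4.3.3 over 27768 regions (Benjamini-Hochberg, 0.05). Scripts were tested on simulated data. Python 3.11.15, numpy 2.4.6, pandas 2.3.3 and scipy 1.17.1 were used.

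Regions named were the 6 widest, the 6 with the highest mean log2 summit, and those next to the width limits. Also named were the 4 with the largest and the 4 with the smallest ratio of covered bases. The plan added up to 6 called by limma in each direction, but limma without a mean-variance trend called 0 broad regions. Regions called with the trend were named instead, after their values had been seen. The members, lists and tests were chosen with earlier results of these data known.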

Additional observations from a re-analysis of the deposited data

How the results depend on the processing

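Covered bases and widest peaks are descriptions, since width chose the regions, and the groups overlapped in both. The alternatives reuse the same libraries. The ratio of covered bases was above 1 under all 16 alternatives tried (1.02 to 1.16), where the other autosomal shared regions had 1.14 as reported. The ratio of widest peaks was above 1 under all 14 (1.02 to 1.33). The summit difference was above 0 under all 16 (0.12 to 0.49, the lowest on log2 of the −log10 p-values). With 1 library left out at a time the values were 1.02 to 1.16, 1.02 to 1.33 and 0.26 to 0.49 for these 3, and 0.02 to 0.05 for the margin over other regions, which was -0.013 with a width of at least 3000 bp. Wider or narrower limits change the number of regions by construction: 1703 from 1500 bp, 77 from 3000 bp and 215 with at least 2000 covered bases in every library. Regions covered more in both G2 libraries then numbered 658, 24 and 59, where the share over all shared regions was 43.5%. When a library was left out, 197 to 450 of the 539 broad regions were covered more on G2 (450 without G128 replicate 2, 386 without G2 replicate 1). Fewer values then have to be met, and the share over all shared regions is not given for that case. Nothing is read from these counts.

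Limma called 3 broad regions higher and 10 lower with a mean-variance trend, and 93 higher without the median subtraction. With peaks whose p was 10 times below the weakest, limma called 1 of 531 broad regions lower and 0 higher. Of all 20010 shared regions it called 44 lower and 13 higher under that setting. With the replicate number as a block it called 2 higher and 5 lower. The labels do not say that a number marks a shared batch. Deviations of same-numbered libraries correlated at 0.00279 over the shared regions and at -0.19 over the broad ones. Whether a number marks a batch cannot be told from these correlations, and replicate 2 was the deeper library in both groups. The other alternatives with 2 libraries per group called 0 broad regions. Some of them did call other shared regions. When regions whose summits averaged below 40 times the background were dropped, limma called 32 of 20075 shared regions higher and 32 lower. With equally long peak lists it called 0 of 25754 higher and 1 lower. Leaving out a library leaves 1 in its group, so no calls are given for that case. Leaving out the members above 500 times the background, or those in runs of 3 or more, was added after the data were seen and changed no direction.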
